A study of Xenopus laevis with 4 samples.

Results

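In this account of the heat shock system 6 genes are described, read by 7 of the 15491 probesets tested. They are the small heat shock proteins hspb1 and hspb8, the co-chaperones bag3 and dnajb2, the J-domain protein dnajc8 and the heat shock factor hsf1. The genes were chosen by their signals on these same arrays, because they had been seen to run toward N1 tissue while other chaperones ran toward WT tissue. Their direction between the groups is therefore given as a description, without a test. Every probeset whose only gene symbol named one of them, after the suffix of the gene copy was removed, was taken. Of 195 probesets with several symbols, 0 named a member.

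The arrays compare hindlimb stumps of Xenopus laevis tadpoles that regenerate with stumps of transgenic siblings that do not. WT blastemas came from wild type tadpoles. N1 pseudoblastemas came from siblings of strain N1, a line from 1 insertion founder that carries Noggin coding sequence behind the Hsp70 promoter, linked to GFP behind a lens promoter (γ-crystallin). Both hindlimb buds were cut at the future ankle at NF stage 52, and all tadpoles, WT and N1, were heat shocked for 30 minutes at 34°C, first 3 hours before amputation and again 24 and 48 hours after it. Both groups were therefore heat shocked before their tissue was taken on day 3, and no tissue without heat shock was measured. Each group has 2 arrays, each of RNA pooled from 20 limbs.

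Small heat shock proteins hold unfolding proteins in a state from which other chaperones can refold them. In mammals HSPB8 works in a complex with BAG3, a co-chaperone that also binds HSP70 and passes damaged proteins, such as filamin in muscle, to autophagy. J-domain proteins such as DNAJB2 and DNAJC8 switch on the ATPase of HSP70. HSF1 is the transcription factor that turns on heat shock genes after stress.

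Signals are MAS5 values, a linear brightness that summarises the short probes of a probeset and that the authors scaled to a trimmed mean of 500 on every array. Signals of different probesets are not on one scale of abundance. The median signal of an array lay between 157 and 175. The probeset of Noggin (nog.L) had WT signals of 91.8 and 95.5 and N1 signals of 75.6 and 52.2. It does not check the labels, since where its probes lie in the transcript is not known and the transgene holds coding sequence only. The control probeset for EGFP had 16.1 and 29.4 in WT, against 123 and 108 in N1. The limb bud labels could be set against 16 measured genes of limb buds. Of these 11 were no dimmer than the median probeset, the brightest being hand2.S, hoxa11.S and msx1.L. Tbx4.L and fgf10.S, named after their values were seen, were dimmer, at the 32.7th and 28.2nd percentiles of the mean log2 signal. One N1 array stood apart in a control probeset for muscle actin (a3Act-3). It read 2052 in N1 replicate 1 but 392 in N1 replicate 2, against 276 and 287 in WT. The other control probesets of this actin were far dimmer. A3Act-M had 36.8 and 28.8 in WT, against 86.8 and 30.1 in N1, and a3Act-5 had 21.7 and 3.46, against 7.68 and 3.48.

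Of the 7 member probesets only that of dnajc8 was bright. It lay at the 83.2nd percentile of the mean log2 signal, and the other 6 were all among the dimmest 25% of the probesets. For a gauge of background, chosen after the member signals were seen, 19 control probesets for synthetic tags and for red fluorescent proteins were read, sequences foreign to the frog. Their signals ran from 2.37 to 98.9 with a median of 14.4, and the highest on each array was between 39.6 and 98.9. All 4 dnajc8 signals were above every foreign control of their array. Of the 24 signals of the other 6 probesets, only those of dnajb2 and hspb8 on the array of N1 replicate 2 were.

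**Figure D1:**
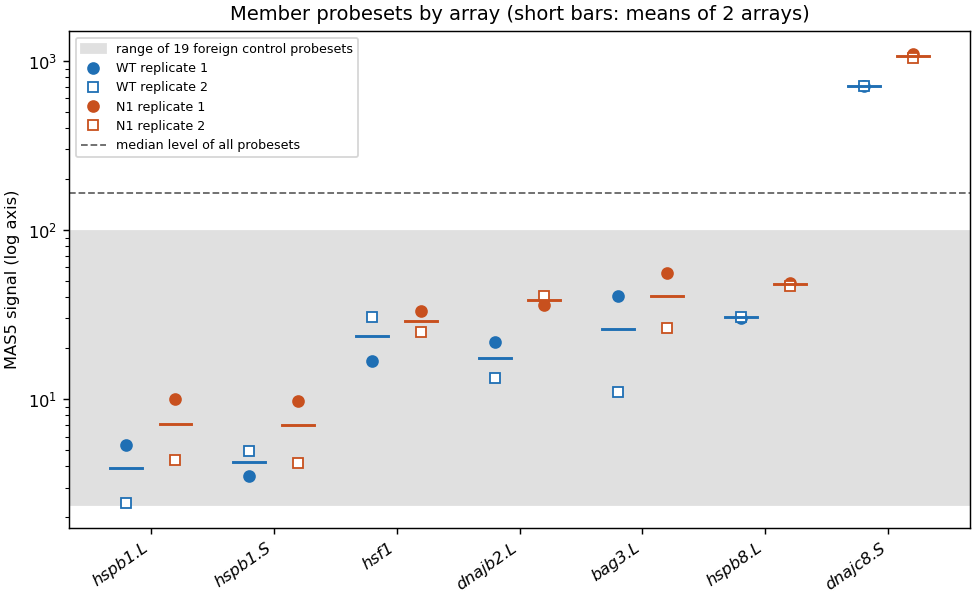
MAS5 signals of the 7 member probesets on each of the 4 arrays (log axis), with a short bar at the mean of each group. The grey band spans the 19 foreign control probesets (2.37 to 98.9). Signals of different probesets are not to be compared with each other. The 4 signals of dnajc8.S are above the band and those of the other 6 probesets are inside it.

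Dnajc8 encodes a J-domain protein that is found with the splicing machinery in mammals. Its S copy (dnajc8.S) had WT signals of 714 and 708 and N1 signals of 1100.3 and 1038. Both N1 arrays were above both WT arrays, and the arrays of a group lay close together. The means were 711 ± 4.91 (SD, n = 2) in WT and 1069 ± 44.2 in N1, 1.50-fold higher in N1, and the lowest N1 signal was 1.45-fold the highest WT signal. On the log2 scale the difference of WT minus N1 was -0.59, against a difference between replicates of 0.014 in WT and 0.084 in N1. Among the 501 probesets nearest in level the median difference between replicates was 0.18 in WT and 0.30 in N1. The L copy of dnajc8 was not analysed here.

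Hspb8, the small heat shock protein that pairs with BAG3, was read by a probeset of its L copy (hspb8.L). Its signals were 30.3 and 30.7 in WT and 48.6 and 46.6 in N1. The N1 arrays were again both above the WT arrays. The means of 30.5 ± 0.287 (SD, n = 2) and 47.6 ± 1.41 differed 1.56-fold. The replicates differed by only 0.019 and 0.060 on the log2 scale, while the 501 probesets nearest in level had medians of 0.56 in WT and 0.74 in N1, so the replicates of this probeset were closer than those of most probesets as dim as it. Between 3 and 4 of the 19 foreign controls were brighter than hspb8.L on each array except that of N1 replicate 2, where 0 were.

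Bag3 encodes the co-chaperone that joins HSP70 to small heat shock proteins. Its probeset (bag3.L) had WT signals of 40.7 and 10.95 and N1 signals of 55.3 and 26.2. The groups overlapped, because WT replicate 1 was above N1 replicate 2. The means were 25.8 ± 21.0 (SD, n = 2) and 40.7 ± 20.6, so the difference between the groups was smaller than the SD within each. On the log2 scale WT minus N1 was -0.85, while the WT arrays differed from each other by 1.89 and the N1 arrays by 1.08. Without WT replicate 2 the difference turned to 0.096. Foreign controls brighter than bag3.L numbered 1 and 11 of 19 for WT replicates 1 and 2, and 1 and 2 for N1 replicates 1 and 2.

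Dnajb2 encodes a J-domain protein that, in mammals, also binds ubiquitin and directs proteins to the proteasome. Its L copy (dnajb2.L) had WT signals of 21.9 and 13.3 and N1 signals of 35.8 and 40.8. The groups did not overlap, and the means of 17.6 ± 6.05 (SD, n = 2) and 38.3 ± 3.52 differed 2.18-fold. Its log2 difference was -1.16, with differences of 0.72 between the WT replicates and 0.19 between the N1 replicates. At this level an added constant matters. With 16 added before log2 the difference was -0.70, and with 64, more than any of its signals, it was -0.33. Foreign controls brighter than dnajb2.L numbered 7 and 10 of 19 for WT replicates 1 and 2, and 7 and 0 for N1 replicates 1 and 2.

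Hspb1, known as Hsp27 in mammals, is a small heat shock protein of epithelia and muscle that binds actin filaments, and it was the only member read from both gene copies. The L copy (hspb1.L) had WT signals of 5.35 and 2.43 and N1 signals of 9.95 and 4.38. The S copy (hspb1.S) had 3.52 and 4.91 in WT, against 9.76 and 4.21 in N1. In both copies the highest signal was that of N1 replicate 1, while N1 replicate 2 was below the higher WT array, so the groups overlapped. In the L copy the WT arrays differed by 1.14 on the log2 scale, about as much as the N1 arrays (1.18). Both probesets were in the dimmest 5% of all probesets, and on every array at least 14 of the 19 foreign controls were brighter. When N1 replicate 1 was left out, the log2 difference shrank from -0.87 to -0.28 for the L copy and from -0.62 to -0.018 for the S copy. No level of hspb1 mRNA was distinguishable from background at these signals.

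Hsf1, the factor that drives the heat shock genes, had WT signals of 16.8 and 30.5 and N1 signals of 33.0 and 24.8. The groups overlapped, with means of 23.7 ± 9.67 (SD, n = 2) and 28.9 ± 5.78. The log2 difference was -0.34 and turned to 0.090 without WT replicate 1. Its probeset had its symbol only from the array's annotation, since its gene number was not matched in the RefSeq table.

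All 7 member probesets had the higher mean in N1, which is what they were chosen for, and their median log2 difference was -0.64. In 3 of the 7 (dnajc8.S, hspb8.L and dnajb2.L) both N1 arrays were above both WT arrays, in 0 the reverse. Over all 15491 probesets the first held for 24.2% and the reverse for 17.9%. Nothing is read from these counts, since the choice used this contrast. Their direction was also that of most dim probesets. In the dimmest 25% of the probesets 62.8% had a log2 difference below 0, with a median of -0.33, against 49.5% and a median of 0.0040 at or above the median level. The dim members lie in a part of the array that leans toward N1 as deposited, and dnajc8.S lies in a part that does not. Centring each array on its median log2 signal shifts every difference by 0.11 toward WT. Relative to that shift the differences were -0.74 for bag3.L, -1.06 for dnajb2.L, -0.48 for dnajc8.S, -0.23 for hsf1, -0.76 and -0.52 for hspb1.L and hspb1.S and -0.53 for hspb8.L.

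**Figure D2:**
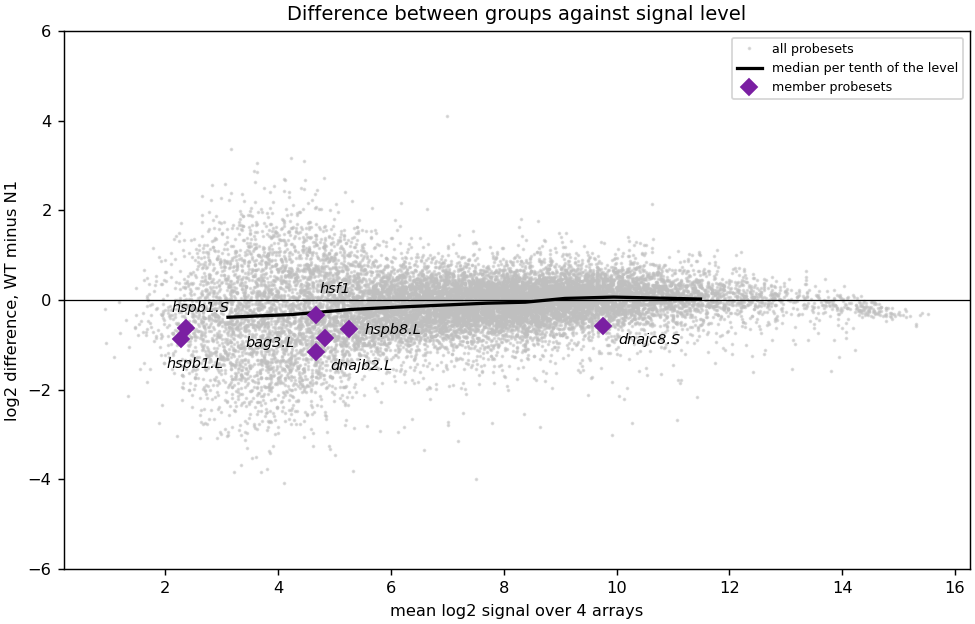
Log2 difference of WT minus N1 against the mean log2 signal for all 15491 probesets (grey), with the median in 10 bins of level with like numbers of probesets (line) and the 7 member probesets (diamonds). The line lies below 0 among dim probesets, where 6 of the members are found (median of -0.33 in the dimmest 25%), and near 0 at the level of dnajc8.S.

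The other chaperones were counted over 63 measured genes of 132 listed, each by its brightest probeset, with the members left out. They were compared with limma over all probesets, which at an adjusted p under 0.05 called 0.0129% higher in WT and 0.11% in N1, and without adjustment 4.29% and 6.82% (664 and 1057 probesets, 1028 and 762 with median centring). None of the 63 genes was called after adjustment (0 of 63). At an unadjusted p under 0.05 there were 13 higher in WT and 1 higher in N1. The 13 became 6 without WT replicate 2, 23 without N1 replicate 2 and 20 with median centring, and the 1 became 2 without N1 replicate 2 and 0 without each of the other arrays in turn and with median centring. In 32 genes both WT arrays were above both N1 arrays and in 5 the reverse, against 17.9% and 24.2% of all probesets. Among the 49 of these genes at or above the median level the numbers were 28 and 3, against 24.1% and 23.2% of all probesets at that level. The median log2 difference of WT minus N1 over the 63 was 0.31, against -0.073 for all probesets. The lists were drawn up with earlier results of these arrays known, so these counts are no independent evidence of a direction.

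Among these families the chaperonins, ring-shaped folding machines, and prefoldin, which delivers proteins to them, ran most evenly. All 13 measured genes had a log2 difference above 0 as deposited and with median centring (12 of 13 with quantile normalisation). At or above the median level, where all 13 lie, 24.1% of probesets did not overlap toward WT and 23.2% toward N1. Of the 13 genes, 10 did so toward WT and 0 toward N1 as deposited. Their brightest probeset, cct5.S, had WT signals of 17998 and 19466 and N1 signals of 14787 and 15495. The WT arrays were both higher, by 0.31 on the log2 scale (adjusted p = 0.556 from limma). Next by level were cct4.S and cct2.S, each also at 0.31 (adjusted p = 0.565 and 0.582 from limma). Of 13 genes of HSP90 and its co-chaperones, 10 were above 0. Without overlap 7 ran toward WT and 1 toward N1, against 17.9% and 24.2% of all probesets. At or above the median level, where 11 of the 13 lie, these shares were 24.1% and 23.2%. The brightest were ptges3.L, stip1.L and st13.S, at 0.49, 0.48 and 0.57 (adjusted p between 0.304 and 0.415 from limma).

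The relatives of the members by family were fewer and lay in both directions. Of 14 further small heat shock proteins and crystallins listed, only 2 were measured, both below the median level. Hspb7.L, a small heat shock protein of heart and muscle, had WT signals of 42.8 and 28.1 and N1 signals of 23.9 and 22.9. Cryaa.S, the lens chaperone α-crystallin A, had 37.1 and 27.0 in WT, against 56.1 and 60.4 in N1. Cryaa.S on the array of N1 replicate 2 (60.4) was above every foreign control of that array, the highest of which read 39.6. The other signals of both genes were below the highest control of their array. Neither gene passed the test (adjusted p = 0.781 and 0.587 from limma), so no direction is read from them. Of the 7 measured BAG domain proteins and other HSP70 exchange factors 2 were higher in WT and 1 in N1 without overlap. Over all probesets these shares were 17.9% and 24.2%. The bright bag6.S, a BAG family member that guards membrane proteins, had 1956 and 2535 in WT, against 2485 and 1683 in N1, which overlap.

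HSP70, with which bag3 and the J-domain proteins work, was read from 6 genes, of which 5 were no dimmer than the median probeset. Without overlap 3 of the 6 ran toward WT and 1 toward N1. These shares were 17.9% and 24.2% over all probesets, and 24.1% and 23.2% at or above the median level. Hspa8.L, the constitutive HSP70, had WT signals of 14275 and 14747 and N1 signals of 18341 and 13936, which overlap. The brightest of the family, hspa1l.S, had 24821 and 24742 in WT, against 26443 and 26457 in N1, where the groups did not overlap but the log2 difference was only -0.094 (adjusted p = 0.881 from limma). Neither has a settled direction, since with quantile normalisation all 6 measured genes of the family lay above 0, and with median centring 5 of 6. The mitochondrial HSP70, hspa9.L, had 3607 and 4485 in WT, against 1610.1 and 2390.0 in N1, with a log2 difference of 1.04 (adjusted p = 0.155 from limma). Another of the 6, hsp70.L, was named after its values were seen. It had 37.7 and 48.5 in WT, against 6.53 and 25.1 in N1, within the range of the foreign controls. Its log2 difference of 1.74 was the largest of the family as deposited (adjusted p = 0.479 from limma).

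The J-domain proteins other than dnajb2 and dnajc8 ran toward WT or overlapped. Of 7 in classes A and B, 3 did not overlap toward WT and 0 toward N1, and of 11 in class C the numbers were 4 and 0. Over all probesets these shares were 17.9% and 24.2%. At or above the median level, where 6 of the 7 and 9 of the 11 lie, they were 24.1% and 23.2%. A log2 difference below 0 was seen in 2 of the 7 and in 4 of the 11. Dnaja1.L, a partner of HSP70 in the cytosol, had WT signals of 2781 and 3114 and N1 signals of 1802 and 1912, a log2 difference of 0.66 (adjusted p = 0.215 from limma). Dnaja2.S and dnajb11.L had differences of 0.24 and 0.31, and the bright genes of class C, dnajc25.S, sec63.S and dnajc1.S, of 0.18, 0.43 and 0.068 (adjusted p between 0.668 and 0.946 for these 5, from limma). By values seen first, dnajc5.S, a class C protein of synaptic vesicles, had a dim pattern much like that of bag3.L, with 53.4 and 14.1 in WT and 63.1 and 39.1 in N1.

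Of the genes around hsf1, hsf2.L, a second heat shock factor, had WT signals of 1099.7 and 1277 and N1 signals of 1067 and 909.6, a log2 difference of 0.27 (adjusted p = 0.666 from limma). Hsbp1.L, a small protein that binds HSF1 and restrains it, had 5107 and 4536 in WT, against 7699 and 5861 in N1. Both N1 arrays were higher, by a log2 difference of -0.48, and this was the 1 chaperone list gene toward N1 at an unadjusted p under 0.05 (adjusted p = 0.415 from limma). Running toward N1 was not confined to the members, though its share was smaller than over all probesets. Of the 63 other genes 15 had a difference below 0 (12 with median centring, 13 with quantile normalisation), against 55.9% of all probesets as deposited. The 5 without overlap were hsbp1.L, cryaa.S, hspa1l.S, grpel2.L and fkbp4.S.

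**Figure D3:**
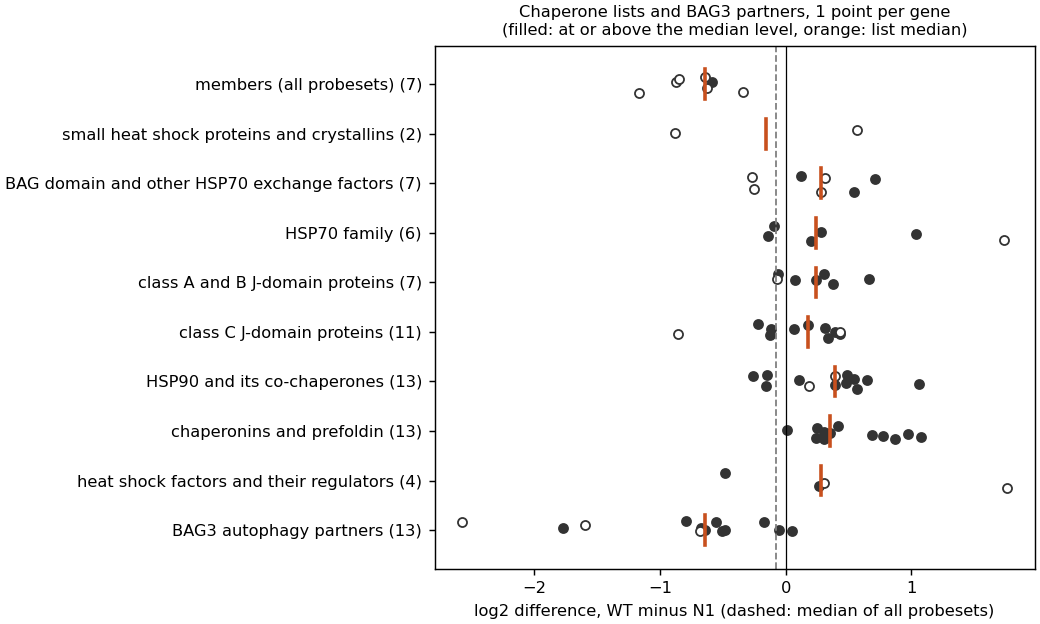
Log2 difference of WT minus N1 for the 7 member probesets and for each measured gene of the lists, 1 point per gene by its brightest probeset, filled where the level is at or above the median. The orange bar is the median of a list and the dashed line that of all probesets (-0.073). As deposited the chaperonins all lie above 0 (12 of 13 with quantile normalisation), and the members (median of -0.64) and 12 of the 13 BAG3 partners lie below it (11 with median centring).

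The partners through which BAG3 leads proteins to autophagy were read with a list of 23 genes, of which 13 were measured and 10 of those were at or above the median level. Each gene was read by its brightest probeset. In 9 of the 13 both N1 arrays were above both WT arrays and in 0 the reverse, against 24.2% and 17.9% of all probesets. Their median log2 difference was -0.64, against -0.073 for all probesets. Of the 13 genes 12 were below 0 (11 with median centring, 12 with quantile normalisation), against 55.9% of all probesets as deposited. At an unadjusted p under 0.05 from limma, 6 were higher in N1 and 0 in WT, against 6.82% and 4.29% of all probesets, and after adjustment 0 were called. The 6 became 2 without WT replicate 1, 1 without WT replicate 2, 3 with median centring and 3 without the variance trend.

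Gabarap.L, a ubiquitin-like protein of autophagosome membranes, was the brightest of them, with WT signals of 1270.3 and 1276 and N1 signals of 1795 and 1757. The arrays of each group lay close together, and the log2 difference was -0.48 (adjusted p = 0.369 from limma). Gabarapl1.S, of the same family, had 624 and 505 in WT, against 720.3 and 877 in N1 (adjusted p = 0.462 from limma). Hdac6.L, a deacetylase that carries aggregates along microtubules, had 826 and 639 in WT, against 777 and 733 in N1, which overlap.

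The following partners were picked after their values were seen. Gabarapl2.L had WT signals of 198 and 133 and N1 signals of 535 and 573. Both N1 arrays were far above the WT arrays, with a log2 difference of -1.77, and its adjusted p of 0.0661 from limma was the lowest of the list. Sqstm1.L, the autophagy receptor p62 that gathers ubiquitinated proteins, had 267 and 257 in WT, against 423 and 413 in N1, a log2 difference of -0.67 (adjusted p = 0.355 from limma). Flnc.L, the muscle filamin that BAG3 clears in mammals, had 152 and 118 in WT, against 236 and 228 in N1 by its brighter probeset and 75.2 and 51.1 against 122 and 130.2 by the other. The identifiers of both probesets differ only in their ending, so they are not taken as independent readings.

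All 6 measured genes of the LC3 and GABARAP family, by their brightest probeset, had both N1 arrays above both WT arrays as deposited, which held for 24.2% of all probesets, and 5 of the 6 did with median centring or quantile normalisation. For map1lc3b.S the WT signal of 142 and the N1 signal of 143 that lay closest were all but equal. For map1lc3c.L this rested on WT signals of 2.50 and 2.53 and N1 signals of 36.9 and 6.10, within the range of the foreign controls. The gene copies did not all agree. Map1lc3a.S had 389 and 409 in WT, against 564 and 608 in N1. The dimmer map1lc3a.L ran the other way, with 80.5 and 90.2 in WT and 28.4 and 30.4 in N1. The paper lists this probeset of map1lc3a.L as higher in WT, and its qPCR of the gene was also higher in WT. Over all 17 probesets of the 13 genes, 10 did not overlap toward N1 and 1 toward WT.

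**Figure D4:**
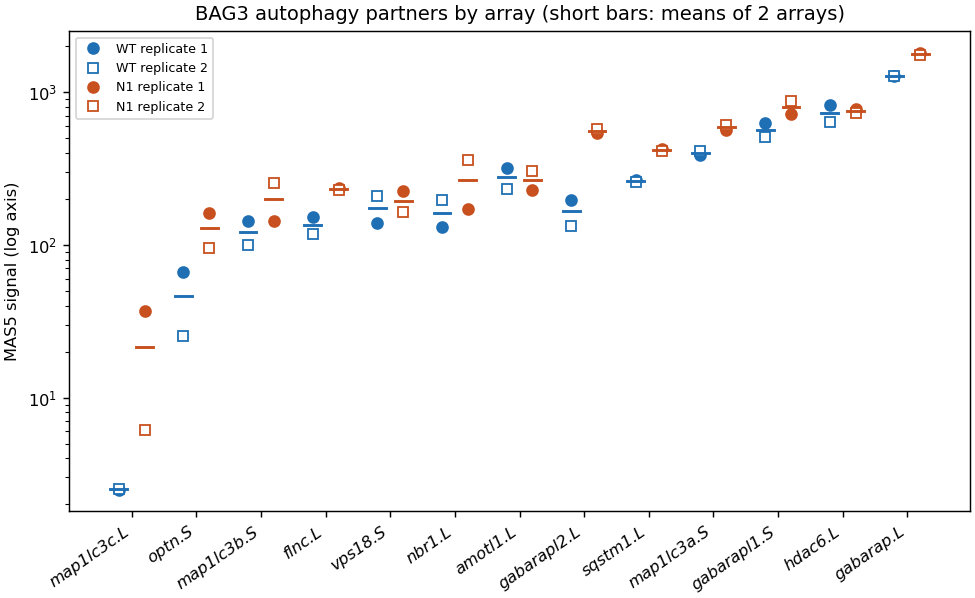
MAS5 signals of the 13 measured BAG3 partner genes on each of the 4 arrays (log axis), each gene by its brightest probeset, with a short bar at the mean of each group. In 9 genes both N1 arrays are above both WT arrays, among them gabarap.L (1270.3 and 1276 against 1795 and 1757).

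Hspb1, hspb8, bag3 and flnc are known from muscle, and hspb1 from epithelia, so marker genes of other cell types were summed by array. In bulk tissue, fewer cells of a type and less RNA per cell cannot be told apart. Each sum is weighted toward its brightest probesets, whose signals are not on one scale with the others. Skeletal muscle markers (24 of 32 measured) summed to 3461 and 3165 in WT, against 4631 and 3797 in N1, and 7 of the 24 did not overlap toward N1 and 2 toward WT, shares that can be set beside 24.2% and 17.9% of all probesets. Of these 24 genes 15 were in the dimmest 25% and 2 at or above the median level. Of the 2 brightest, both highest in N1 replicate 2, ckm.L, the muscle creatine kinase, had 1342 and 1308 in WT, against 1384 and 1671 in N1, and atp2a1.S, a calcium pump, overlapped. N1 replicate 2 was the highest array for these 2 genes alone, and its higher muscle sum rests on them. Over the whole list N1 replicate 1 was the highest array for 16 of the 24 genes, all of them below the median level. It was also the highest for every member probeset except dnajb2.L. The foreign controls had their highest median on that array too, at 21.7, against 18.1 and 14.3 in WT and 8.96 in N1 replicate 2. Being highest there is therefore not particular to muscle genes or members. Among the muscle genes, mylpf.L, a myosin light chain picked after its values were seen, had WT signals of 8.04 and 7.85 and N1 signals of 180 and 32.7. All but its signal in N1 replicate 1 were below the highest foreign control of their array. Actn2.L, also picked after its values were seen, ran toward WT, with 21.7 and 30.8 in WT, against 17.9 and 17.9 in N1. All of its signals were below the highest foreign control of their array. Epidermal markers (15 of 26 measured) summed to 20838 and 21293 in WT, against 26650 and 27373 in N1. Of these 15, 9 did not overlap toward N1 and 0 toward WT. The brightest, krt62.L, overlapped, with 9203 and 10696 in WT and 11892 and 10537 in N1. Red cell markers (8 of 12) summed to 32901 and 26626 in WT, against 64751 and 77615 in N1. Of these 8, 7 did not overlap toward N1 and 1 toward WT. Nearly all of the red cell sums came from hba2.L, hba3.L and hbd.S. The epidermal and red cell counts stand beside the same 24.2% and 17.9% of all probesets.

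Pigment cell markers (5 of 10) summed to 1647 and 1901 in WT, against 4226 and 2414 in N1. Of these 5, 3 did not overlap toward N1 and 0 toward WT, against 24.2% and 17.9% of all probesets. Leucocyte markers (9 of 16) summed to 1704 and 1600 in WT, against 1875 and 1726 in N1. Of these 9, 3 did not overlap toward N1 and 1 toward WT, beside the same shares of all probesets. The 2 genes named here were picked after their values were seen. The brightest, cd74.S, was higher in WT without overlap, with 813 and 864 in WT, against 774 and 701 in N1. Ptprc.L, which encodes CD45, lay within the range of the foreign controls on all arrays (4.48 and 6.35 in WT, 12.4 and 14.1 in N1). Cartilage markers (5 of 14) ran the other way, from 2351 and 1742 in WT to 1056 and 1304 in N1. Lens markers (4 of 8) were all dim, with WT sums of 48.9 and 71.6 and N1 sums of 108 and 112. The part of these cell types in the member and partner signals was not tested.

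**Figure D5:**
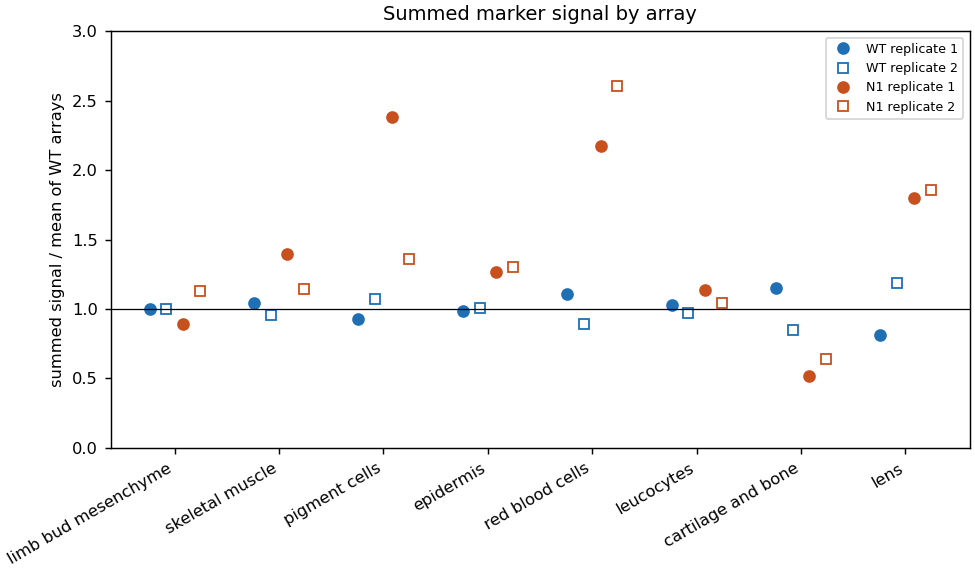
Summed MAS5 signal of the measured marker genes of 8 cell types on each of the 4 arrays, divided by the mean of the WT arrays. Sums of red cell, pigment, lens, epidermal, muscle and leucocyte markers are higher on both N1 arrays than on both WT arrays, cartilage sums are lower, limb bud sums overlap, and the muscle and pigment sums are highest on the array of N1 replicate 1. Each sum is weighted toward its few brightest probesets, and the higher muscle sum of N1 replicate 2 rests on ckm.L and atp2a1.S.

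The genes most like bag3 and hspb8 over the 4 arrays were taken by Pearson's r of the log2 signals, among 749 named probesets at or above the median level with a log2 range of 1 or more. With 4 arrays a high r is common, and 20 of the 749 exceeded 0.95 for bag3.L and 70 for hspb8.L. Nearest to bag3.L were h2az1.S, mpo.L, sec61a1.S, XB5835757.L and rmnd5a.L (r between 0.988 and 1.00), which share the low signal of WT replicate 2 and the high one of N1 replicate 1. H2az1.S, a histone variant gene, had 3389 and 1824 in WT, against 3946 and 2794 in N1. Nearest to hspb8.L were mmp28.L, lmo7.S, cab39l.L, gpx3.S and fut6.S (r between 0.999 and 1.00), in which the arrays of each group lay together. Mmp28.L, a matrix metalloprotease, had 138 and 140.0 in WT, against 291 and 267 in N1.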

How the data were processed

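Each of 4 pooled RNA samples (2 of WT blastemas, 2 of N1 pseudoblastemas) was amplified, labelled with the Affymetrix 2-cycle kit and hybridised to its own X. laevis GeneChip. The authors made the deposited signal intensity values with the MAS5 algorithm in GCOS, on a linear scale, and the trimmed mean (2% at each end) of each array was 500. Versions of these tools are not given in the sources used here. The deposited signals were taken to log2 with nothing added.

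After 120 control probesets were set aside, 15491 were fitted with limma 3.58.1 (R 4.3.3) as WT minus N1. The fit used lmFit and eBayes with a variance trend, two-sided, with Benjamini-Hochberg over all 15491 probesets and a threshold of 0.05. Gene symbols came from the array's annotation: 9304 probesets had 1 symbol, 195 several and 5992 none. Of the first, 9227 matched the RefSeq table of Xenopus_laevis_v10.1. Its symbols were used only as a second way to find the genes of the lists and markers. Members were found by the annotation's symbols, which are the symbols printed here.

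Members and lists were chosen with earlier results of these data known. The genes named were taken from all member probesets, the 3 brightest genes of each list, any gene called and the 5 probesets most like bag3 and hspb8, with the brightest markers of limb bud, muscle, epidermis and red cells, except where the text says that values were seen first. As alternatives the variance trend was left out, probesets below the median level were dropped, arrays were quantile normalised or centred on their medians, 16 or 64 was added to the signals, the replicate number entered as a block, and every array was left out in turn. The signs and overlaps of list genes under other scalings, and the p counts of the BAG3 partners under all alternatives, were added after seeing the data. Sequence features of the members were not analysed here. Precision is limited by having 2 arrays a group, with which no exact permutation test can pass the threshold, and p-values from limma measure only the spread between these pools.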

Additional observations from a re-analysis of the deposited data

How the results depend on the processing

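All 7 member differences kept their sign with quantile normalisation, median centring and 16 or 64 added before log2. With 1 array left out, that of bag3.L ranged from -1.80 to 0.096 (turned without WT replicate 2) and that of hsf1 from -0.77 to 0.090 (turned without WT replicate 1), and those of the other 5 probesets kept theirs. The number of members with every N1 array above every WT array was 3 with quantile normalisation and with median centring. Adding a constant cannot change the order of the arrays of a probeset, so the count of 3 was fixed in advance there. It was between 3 and 7 with an array left out, where a group of 1 array separates more easily. Shares of all probesets in these settings are not given here. Nothing is read from these counts, since the choice used this contrast.

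With limma, 2 probesets were called higher in WT and 17 in N1. These became 0 and 0 without the variance trend, 4 and 32 over probesets at or above the median level, and 57 and 143 with the replicate number as a block. The N1 count became 8 with median centring and 4 with 64 added before log2. With an array left out they ranged from 0 to 178 and from 0 to 156. Without adjustment, at p under 0.05, there were 664 and 1057. The WT count became 415 without the trend and 1028 with median centring (762 in N1), and the N1 count 647 over probesets at or above the median level, while quantile normalisation gave 773 and 883. With an array left out the ranges were 217 to 1263 and 593 to 1475.

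Of the other chaperones, 13 passed toward WT and 1 toward N1 when p was not adjusted. The 13 became 8 without the trend and 20 with median centring (0 in N1), and with an array left out they ranged from 6 to 23 and from 0 to 2. After adjustment 0 were called, 4 with the replicate block, and 0 to 9 with an array left out. The 6 BAG3 partners became 3 without the trend and 3 with median centring, and ranged from 1 to 7 with an array left out. After adjustment 0 were called, but 1 over probesets at or above the median level and 1 with the block. Same-numbered arrays did not deviate together (r of 0.028 across probesets). This r cannot tell whether same-numbered pools were handled together, and the labels do not say, so whether the numbers pair the samples is not known. What moved these counts was not tested. Dim signals limit the members most, since 6 of the 7 lay among the foreign controls.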
